A study of Mus musculus with 12 samples.

Results

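The expression of 10 genes that mark the astrocyte and oligodendrocyte lineages, Gfap, Aqp4, Aldh1l1, S100b, Slc1a2, Slc1a3, Olig1, Olig2, Pdgfra and Egfr, was followed in the mouse dentate gyrus and in neurospheres with and without Larp7. The members were chosen by symbol and by the matching Entrez identifier, and all 10 were found among the 27998 genes of the single-cell files and among the 40814 genes of the neurosphere count table. Single-cell RNA was measured at postnatal day 7 in 3 libraries of microdissected dentate gyrus. The wild-type library came from Larp7-floxed mice without Cre, and the mutant libraries came from Larp7f/f;nestin-Cre and Larp7f/f;Emx1-Cre mice. Each library combined 3 to 4 gyri of littermates, so that a library is not 1 animal. All the groups carry the floxed Larp7 allele. The nestin-Cre transgene acts broadly in the developing nervous system, and the Emx1-Cre knock-in acts in the dorsal forebrain lineage. The titles and genotype entries of the 2 mutant libraries name opposite Cre lines, and the titles are followed here. Neurospheres, which are free-floating cultures of neural progenitors, were made from P1 dentate gyrus, dissociated, and differentiated for 2 days in N2B27 medium with bFGF at 20 ng/ml. The neurosphere RNA came from 2 wild-type and 3 Larp7f/f;Emx1-Cre cultures, which are called knockout below.

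Neural stem cells of the dentate gyrus, the radial glia-like cells (RGLs), carry many astrocyte genes while they still give rise to neurons. In the mature astrocyte, glutamate transporters clear transmitter from the synapse, Aqp4 moves water at the vascular endfeet and Gfap forms intermediate filaments. The oligodendrocyte lineage is specified by the basic helix-loop-helix factors Olig1 and Olig2, which bind the DNA element called the E-box, and its precursors (OPCs) divide in response to PDGF through the receptor Pdgfra. Egfr, the receptor for EGF, marks glial and activated stem cell progenitors that precede the Pdgfra stage. Larp7 binds the 7SK RNA, which holds the transcription elongation kinase P-TEFb inactive.

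Promoters of 3 members, Slc1a2, Slc1a3 and Pdgfra, are shown because these genes had the lowest p-values of the 10 in neurospheres and include a pair that lay on the same side of wild-type there. The sequences are from RefSeq on GRCm38.p6, run 5′ to 3′ on the strand of the gene, and span 250 bases before to 50 after the start that the promoter table gives. E-boxes (CANNTG, a palindrome, so both strands are covered) are in capitals. The start used for Slc1a2 lies inside the annotated gene (chromosome 2, 102658239 to 102790784) and is not its first base. The same holds for Pdgfra (chromosome 5, 75151322 to 75198206).
Slc1a2, chr2:102706188-102706487, plus strand: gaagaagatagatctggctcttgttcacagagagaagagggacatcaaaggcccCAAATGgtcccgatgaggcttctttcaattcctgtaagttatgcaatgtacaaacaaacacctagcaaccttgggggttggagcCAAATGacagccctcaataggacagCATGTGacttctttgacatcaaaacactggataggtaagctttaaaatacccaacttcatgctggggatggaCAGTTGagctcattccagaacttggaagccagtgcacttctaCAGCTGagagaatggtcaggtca
Slc1a3, chr15:8710758-8711057, minus strand: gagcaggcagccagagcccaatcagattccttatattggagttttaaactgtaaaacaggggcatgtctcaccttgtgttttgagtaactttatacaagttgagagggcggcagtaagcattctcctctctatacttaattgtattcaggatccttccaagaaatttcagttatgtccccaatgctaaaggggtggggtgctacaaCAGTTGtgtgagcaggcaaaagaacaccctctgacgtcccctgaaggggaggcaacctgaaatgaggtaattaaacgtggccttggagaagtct
Pdgfra, chr5:75152001-75152300, plus strand: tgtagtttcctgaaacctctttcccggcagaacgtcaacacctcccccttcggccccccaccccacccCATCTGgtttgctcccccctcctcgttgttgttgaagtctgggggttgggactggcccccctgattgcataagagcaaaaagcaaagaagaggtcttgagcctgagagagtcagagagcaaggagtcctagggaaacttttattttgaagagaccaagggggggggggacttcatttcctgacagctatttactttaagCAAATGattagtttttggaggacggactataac
The Slc1a2 window held 5 E-boxes, the Pdgfra window 2 and the Slc1a3 window 1. Of the 8 members with a promoter that was searched, 5 had an E-box, and 72.3% of all 32851 promoters of that length had one, with a mean of 1.39. The STAT element TTCNNNGAA was found in 2 of the 8, Gfap and Slc1a3, and in 8.3% of all promoters. The NFI core TTGGC or its complement was found in 4 of the 8, S100b, Olig2, Slc1a2 and Egfr, and in 46.7% of all promoters. These matches describe the letters of the windows only. Olig1 and Olig2 lie next to each other on chromosome 16, separated by 41092 bases, with Olig2 at 91225550 to 91228677 and Olig1 at 91269769 to 91271939.

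The filter on cells left 10997, 6685 and 6531 cells in the wild-type, Larp7f/f;nestin-Cre and Larp7f/f;Emx1-Cre libraries. The wild-type library was shallower, with a median of 1782 UMIs per cell against 3644 and 3873. Its background was also higher: in microglia, which should lack these genes, the wild-type level of Slc1a3 was 338 UMIs per 1000000 UMIs of the class (CPM) against 144 and 206 in the mutants, and that of Olig2 was 38.6 against 5.65 and 10.8. The microglia class joins a shallow cluster 9, with 390 of the 650 wild-type cells against 97 of 444 and 26 of 237 mutant cells, and a deeper cluster 14. Within cluster 14, Slc1a3 was at 188 CPM in wild-type against 143 and 202 in the mutants, so that its excess lay in cluster 9, while Olig2 was at 20.9 against 5.78 and 7.03 CPM. The libraries shared only 8 to 16 cell barcodes pairwise. Larp7 itself, counted from 3′ tags, was at 43.6 CPM in wild-type RGLs against 10.4 and 8.42 in the mutants, and at 23.8 CPM in wild-type astrocytes against 2.30 and 7.24. The members were left out of the clustering genes and of the markers that named the clusters, so that their levels by class were not used to define the classes. RGLs numbered 722, 845 and 886 in the 3 libraries in the same order, astrocytes 662, 443 and 575, and OPCs 239, 306 and 301. All 11 RGL markers, 15 astrocyte markers and 9 OPC markers were detected and were higher in their class than in the remaining cells. A further cluster of 221, 185 and 172 cells, cluster 11, met the full naming rule for no marker list and stays unnamed. At most 4 markers of any list were raised there. Its leading 3 genes by fold were Olig2, Olig1 and Egfr. Each genotype has 1 single-cell library, so that no p-value is given for these cells and the 95% intervals cover counting error only. Shares of cells with a UMI were taken after each cell was thinned to 1500 UMIs, with shallower cells left out.

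The 10 genes did not appear together along the astrocyte lineage. Slc1a3, Slc1a2 and Gfap were already high in RGLs, Aqp4 was intermediate there, Aldh1l1 was low, and Olig1 and Olig2 were below the microglial level. Egfr and S100b were below 6 CPM in RGLs, and Egfr there was above microglia in Larp7f/f;nestin-Cre, at 5.97 against 1.26 CPM (19 and 2 UMIs). Slc1a3, the glutamate transporter GLAST, was at 3010 CPM in wild-type RGLs, 3839 in Larp7f/f;nestin-Cre and 3336 in Larp7f/f;Emx1-Cre RGLs. In astrocytes it was at 3088, 3099 and 2932 CPM. The astrocyte level was 0.807 to 1.03 times the RGL level over the 3 libraries, so that Slc1a3 did not separate these classes.

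Slc1a2, the transporter GLT-1, was at 1569, 2578 and 2099 CPM in RGLs of the wild-type, Larp7f/f;nestin-Cre and Larp7f/f;Emx1-Cre libraries. In astrocytes it reached 4066, 5657 and 5009 CPM, which is 2.19 to 2.59 times the RGL level. It was present in nearly all cells of either class, with a UMI in 87.4%, 95.6% and 91.5% of RGLs and in 97.3%, 99.1% and 98.4% of astrocytes after thinning. Gfap was at 429, 335 and 400 CPM in RGLs and at 729, 561 and 725 CPM in astrocytes, a difference of 1.68 to 1.81 times. Its share of cells did not follow that level: 45.1%, 34.8% and 40.9% of RGLs and 43.3%, 38.9% and 41.1% of astrocytes had a UMI, so that more Gfap UMIs sat in a like share of cells.

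Aqp4, the water channel, separated RGLs from astrocytes more widely. It was at 162, 169 and 206 CPM in RGLs and at 1018, 1144 and 1521 CPM in astrocytes, 6.27 to 7.40 times higher. Its share of cells differed in parallel, from 18.5%, 22.9% and 22.7% to 58.6%, 61.8% and 69.7%. Aldh1l1, an enzyme of folate metabolism, was at 28.9, 20.4 and 22.8 CPM in RGLs and at 257, 246 and 287 CPM in astrocytes, 8.88 to 12.6 times higher. S100b, a calcium-binding protein, went from 5.34, 4.09 and 5.11 CPM in RGLs to 124, 89.8 and 125 CPM in astrocytes, 22 to 24.4 times higher. The RGL level of S100b in the wild-type library was below its microglial level of 6.66 CPM and is read as background there. In the mutants it lay above microglia on few UMIs. The levels were 4.09 against 1.88 CPM (13 and 3 UMIs) in Larp7f/f;nestin-Cre and 5.11 against 1.08 CPM (17 and 1 UMIs) in Larp7f/f;Emx1-Cre.

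Olig1, Olig2 and Egfr were also higher in the astrocyte class than in RGLs. Olig1 was at 17.8, 15.4 and 13.5 CPM in RGLs and at 660, 441 and 498 CPM in astrocytes, and Olig2 was at 4.00, 1.89 and 2.71 CPM and at 160, 64.0 and 90.0 CPM. The RGL levels of both lay below the microglial levels in every library, so that neither was detectable above background in RGLs. The share of astrocytes with an Olig1 UMI was 55.0%, 42.2% and 45.5%, against 9.37%, 2.58% and 2.23% of microglia. Egfr was at 65.5, 78.3 and 75.9 CPM in astrocytes, 13.1 to 18.4 times the RGL level. Pdgfra was at 3.85, 2.76 and 11.7 CPM in astrocytes, against a microglial level of 9.32, 13.8 and 4.34 CPM. It thus lay below microglia in the wild-type and Larp7f/f;nestin-Cre libraries. In Larp7f/f;Emx1-Cre it lay above them, on 34 and 4 UMIs.

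**Figure D1:**
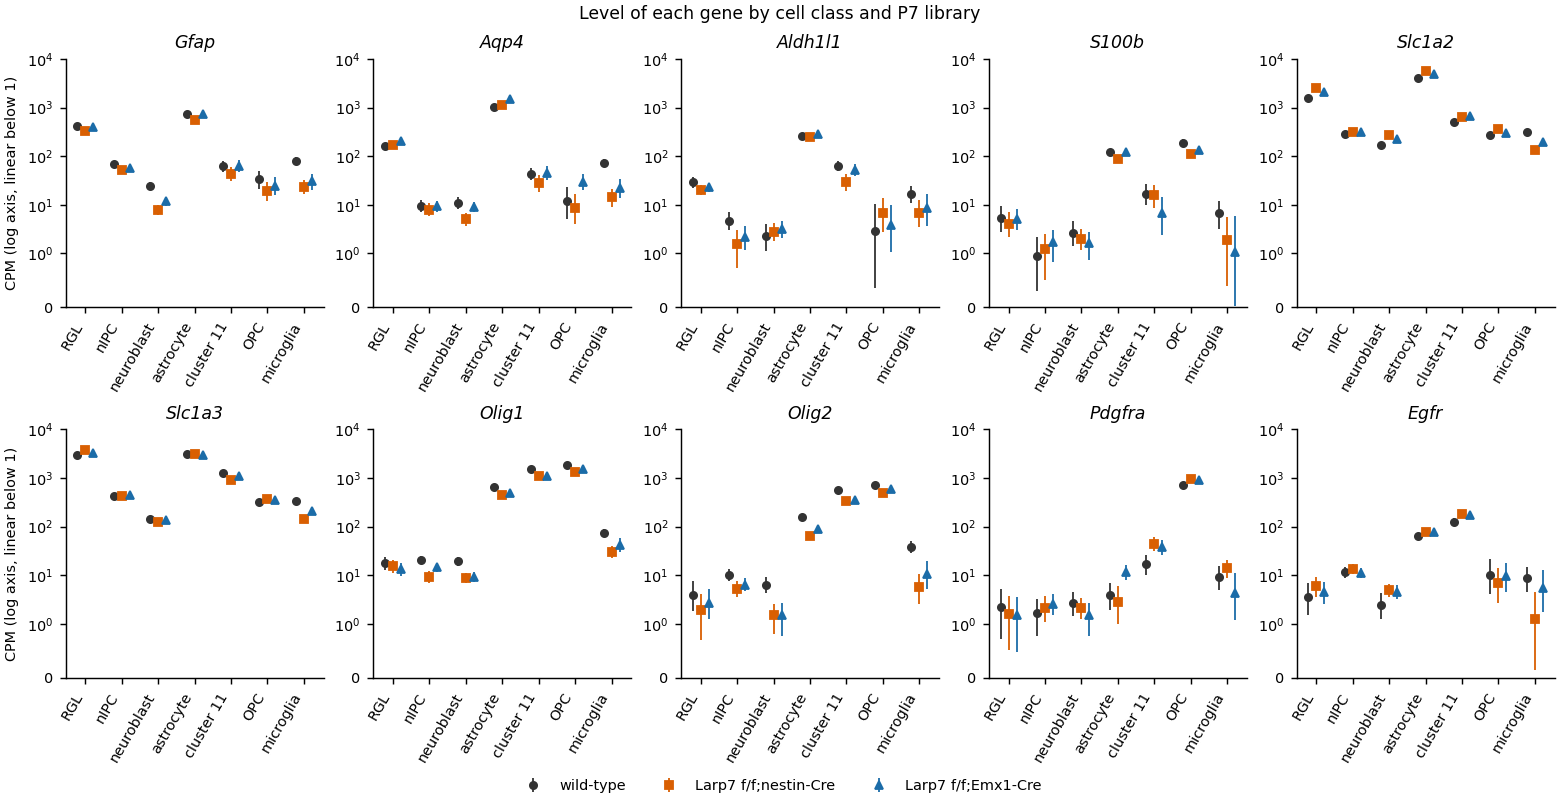
Level of each of the 10 genes in CPM (log axis, linear below 1) in 7 cell classes of the wild-type, Larp7f/f;nestin-Cre and Larp7f/f;Emx1-Cre libraries at P7. Points are summed UMIs per class and library, and bars are 95% counting intervals. Slc1a3 and Slc1a2 sit above 1000 in both RGLs and astrocytes, while Pdgfra stands out in OPCs.

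Of the remaining genes, Olig1, Olig2 and Egfr were high in cluster 11, and Pdgfra and S100b were high in OPCs. Olig1 was at 1520, 1092 and 1109 CPM in cluster 11 and at 1816, 1308 and 1523 CPM in OPCs, a ratio of OPC to cluster 11 of 1.20 to 1.37. Olig2 was at 556, 342 and 346 CPM in cluster 11 and at 713, 485 and 599 CPM in OPCs, a ratio of 1.28 to 1.73. Both factors were therefore near their highest level in cells where Pdgfra was low. Pdgfra was at 16.7, 44.7 and 37.8 CPM in cluster 11 and at 722, 974 and 895 CPM in OPCs, 21.8 to 43.2 times higher. Its share of cells was 3.81%, 7.26% and 6.06% in cluster 11 and 63.8%, 73.2% and 70.7% in OPCs.

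Egfr had the opposite order. It was at 126, 180 and 170 CPM in cluster 11 and at 10.3, 6.82 and 9.62 CPM in OPCs, where the level was 0.0379 to 0.0816 times that of cluster 11. In the wild-type library the OPC level was near the microglial 8.65 CPM. A UMI of Egfr was found in 17.1%, 22.3% and 27.3% of cluster 11 cells and in 1.53%, 1.49% and 1.81% of OPCs. S100b followed Pdgfra and not Egfr: it was at 16.7, 15.6 and 6.68 CPM in cluster 11 and at 187, 110 and 135 CPM in OPCs. The OPC level of S100b lay above its astrocyte level in every library, although in both mutants the intervals overlapped, for example at 113 to 159 against 112 to 138 CPM in Larp7f/f;Emx1-Cre.

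Cluster 11 also kept part of the astroglial set. Slc1a3 was at 1264, 895 and 1116 CPM there, below RGLs and astrocytes and above the 321, 373 and 362 CPM of OPCs. Aldh1l1 was at 63.1, 29.1 and 52.3 CPM in cluster 11, which was 1.42 to 2.29 times the RGL level. The lowest ratio, in Larp7f/f;nestin-Cre, had an interval of 0.865 to 2.27 (26 and 65 UMIs), which includes no difference. Aqp4 was at 43.6, 27.9 and 45.6 CPM, below RGLs in every library. The summed level of the 15 astrocyte markers in cluster 11 was 1147 to 1384 CPM, against 6463 to 7093 in astrocytes, and that of the 9 OPC markers was 281 to 334 CPM, against 3028 to 3562 in OPCs, 470 to 751 in RGLs and 504 to 597 in astrocytes.

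In the neuronal lineage Slc1a3 and Gfap stepped down from RGLs to nIPCs and on to neuroblasts, while Slc1a2 stepped down less evenly. The 7 markers of neuronal intermediate progenitor cells (nIPCs) summed to 3709, 3581 and 3773 CPM in nIPCs and to 4491, 3036 and 3616 CPM in neuroblasts. The 12 neuroblast markers summed to 3936, 5341 and 4669 CPM in nIPCs and to 8976, 9991 and 9962 CPM in neuroblasts. The 2 classes were thus not sharply separate, which limits the steps read between them. In nIPCs, Slc1a3 was at 423, 425 and 441 CPM and Slc1a2 at 282, 316 and 320 CPM. In all 3 libraries the nIPC level of Slc1a2 exceeded that of microglial cluster 14, at 209, 130 and 196 CPM. Against the whole microglia class it was lower in wild-type, at 282 against 310 CPM, and higher in both mutants. In the wild-type blood class, which should lack both transporters, Slc1a2 and Slc1a3 were higher than in wild-type nIPCs, as given under other observations. Those blood cells were shallower, with a median of 1146 UMIs against 3901. By that measure neither transporter stood above background in wild-type nIPCs. Within the nIPC class Slc1a2 was at 409, 540 and 501 CPM in cluster 4 and at 190, 199 and 217 CPM in cluster 5. The wild-type value of cluster 5 lay below that of microglial cluster 14. In neuroblasts as a whole Slc1a2 was at 0.601 to 0.883 times the nIPC level. In neuroblast cluster 1 it was at 279, 357 and 307 CPM, above nIPC cluster 5 in every library. In neuroblasts Slc1a3 was at 145, 124 and 140 CPM and Gfap at 24.3, 7.85 and 11.8 CPM, both below the level of the whole microglia class and of its cluster 14 in the same library. Egfr in nIPCs was at 11.4, 13.7 and 11.3 CPM, but this came from cluster 4, at 24.4, 34.3 and 26.7 CPM, which just met the limit for its name with 3 markers. The larger cluster 5 was at 1.97, 2.98 and 2.64 CPM, below the RGL level of 3.56, 5.97 and 4.51 CPM.

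**Figure D2:**
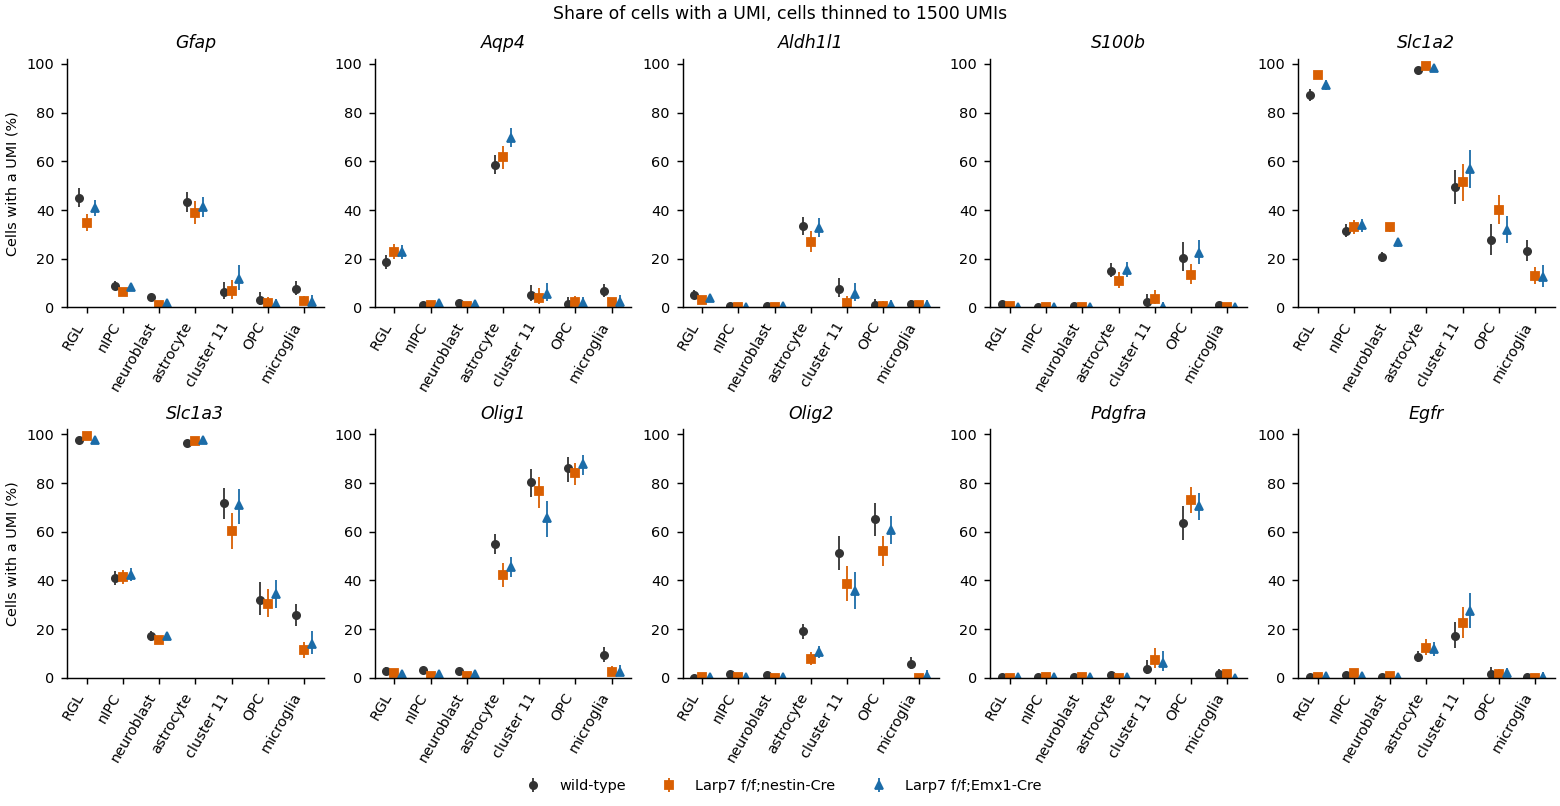
Share of cells (%) with at least 1 UMI of each gene, after each cell was thinned to 1500 UMIs, in 7 cell classes of the 3 P7 libraries. Bars are exact 95% binomial intervals. Egfr is found in cluster 11 and astrocytes (8.44% to 27.3%) and in fewer than 2% of OPCs, where Pdgfra is found in 63.8% to 73.2%.

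Within classes, some pairs of genes were found together more often and others were not. In astrocytes, Aqp4 was found in 71.5%, 74.1% and 79.7% of cells with Gfap and in 48.8%, 54.0% and 62.8% of cells without it. Olig1 was found in 53.9%, 37.1% and 43.4% of astrocytes with Aqp4 and in 56.6%, 50.3% and 50.3% of those without, and in 66.4%, 57.6% and 59.3% of astrocytes with Olig2 against 52.3%, 40.9% and 43.9% of the rest. In cluster 11, Egfr was found in 25%, 24.6% and 39.0% of cells with Olig2 and in 8.82%, 20.9% and 20.8% of cells without it. Pdgfra in OPCs was found in 69.5%, 79.3% and 71.4% of cells with Olig2 and in 52.9%, 66.7% and 69.4% of those without. Aldh1l1 in astrocytes differed little by Aqp4, at 35.5%, 26.1% and 33.5% with it and 30.2%, 28.2% and 31.0% without. Egfr in astrocytes went both ways by Olig2, at 6.56%, 24.2% and 8.47% with it and 8.88%, 11.4% and 12.1% without. These shares describe the cells of 1 library each and were not tested.

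For each gene, the 3 genes with the most similar level over 11 classes of the wild-type library were listed among 11493 genes, by Pearson's r of log2(CPM + 1). The classes share 1 library and differ in depth, and they leave out the unnamed cluster 11, where Egfr was highest and Olig1 close to its highest level. Slc1a2 was closest to Slc6a11 (0.972), Gfap to Gm11627 (0.966), Aqp4 to Htra1 (0.964) and Slc1a3 to Plpp3 (0.977). Aldh1l1 was closest to Fgfr3 (0.947), S100b to Lrp1b (0.949), Olig2 to Sall3 (0.938) and Pdgfra to 3632451O06Rik (0.924). Olig1 (Rab31, 0.896) and Egfr (Tmem229a, 0.886) had no gene above 0.9. Slc6a11, Htra1 and Fgfr3 are among the markers that named the astrocyte class.

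The mutant libraries were each set against the wild-type library within a class. Both comparisons share that wild-type library, so that they are not independent. A difference is called here when it was at least 1.5-fold with at least 100 UMIs over the 2 libraries. Of 100 combinations of gene, class and mutant in the 5 named classes, 60 had enough UMIs and 10 were called, 2 higher and 8 lower in the mutant. Slc1a2 in RGLs and neuroblasts was higher, and Olig2 in astrocytes, S100b in OPCs, Olig1 in nIPCs, and Gfap and Olig1 in neuroblasts were lower.

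In RGLs, 1 of the 5 members with enough UMIs was called in Larp7f/f;nestin-Cre, where 10.4% of all genes were called, and 0 of 5 in Larp7f/f;Emx1-Cre, where 5.56% were. Slc1a2 was 1.64-fold higher in Larp7f/f;nestin-Cre RGLs (95% interval 1.58 to 1.71) and 1.34-fold higher in Larp7f/f;Emx1-Cre RGLs (1.29 to 1.39). In microglia Slc1a2 was at 310 CPM in wild-type against 137 and 196 CPM in the mutants. The part of free RNA in the RGL difference was not tested. In astrocytes Slc1a2 was 1.39-fold (1.36 to 1.43) and 1.23-fold (1.20 to 1.26) higher, and in cluster 11 1.29-fold and 1.31-fold higher, below the 1.5-fold limit. Slc1a3 in RGLs was 1.28-fold and 1.11-fold higher. Gfap did not follow the transporters, being at 0.781 times the wild-type level (0.715 to 0.853) in Larp7f/f;nestin-Cre RGLs and 0.932 times (0.857 to 1.01) in Larp7f/f;Emx1-Cre RGLs.

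In neuroblasts, 3 of 4 members with enough UMIs were called in Larp7f/f;nestin-Cre, where 19.7% of all genes were, and 2 of 5 in Larp7f/f;Emx1-Cre, where 9.71% were. Slc1a2 was at 169 CPM in wild-type, 279 in Larp7f/f;nestin-Cre and 231 in Larp7f/f;Emx1-Cre neuroblasts, and the wild-type value lay below the 310 CPM of wild-type microglia and the 209 CPM of their cluster 14. The 3 clusters of this class were unequally filled, with 344 wild-type cells of 1522 in cluster 1 against 1254 of 2329 and 898 of 2072. The nIPC markers summed to 4491 CPM in wild-type neuroblasts against 3036 and 3616 CPM in the mutants, and their part in these differences was not tested. Within clusters 1, 15 and 16 the log2 difference of Slc1a2 was 0.36, 0.45 and 0.62 in Larp7f/f;nestin-Cre and 0.14, 0.32 and 0.40 in Larp7f/f;Emx1-Cre. When each cell was instead assigned by its own markers, the Larp7f/f;nestin-Cre difference turned to -0.23. The lower Gfap and Olig1 in mutant neuroblasts lay below the microglial level of the same library in all 3 libraries and are read as background. In nIPCs, 1 of 5 members was called in Larp7f/f;nestin-Cre (12.3% of all genes) and 0 of 6 in Larp7f/f;Emx1-Cre (6.51%), and the called gene, Olig1, was below the microglial level in all 3 libraries.

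In astrocytes, Olig2 was the 1 called member of 9 in each mutant, where 7.49% and 4.72% of all genes were called. It was at 0.400 times the wild-type level (0.328 to 0.484) in Larp7f/f;nestin-Cre and at 0.562 times (0.481 to 0.656) in Larp7f/f;Emx1-Cre. The share of astrocytes with a UMI was 19.1% in wild-type against 7.73% and 10.4%. Olig1, its neighbour, was at 0.668 and 0.754 times the wild-type level. In cluster 11, a comparison added after the data were seen, Olig2 was the 1 called member of 6 in Larp7f/f;nestin-Cre (12.8% of all genes) and of 7 in Larp7f/f;Emx1-Cre (7.1%), at 0.615 and 0.623 times the wild-type level. The microglial Olig2 was lower in the mutants too, at 5.65 and 10.8 CPM against 38.6, and the part of free RNA in the astrocyte and cluster 11 differences was not tested.

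The other 8 members with enough UMIs were not called in astrocytes. Aqp4 was 1.12-fold higher in Larp7f/f;nestin-Cre and 1.5-fold higher, after rounding, in Larp7f/f;Emx1-Cre astrocytes (1.43 to 1.57), just short of the limit. Gfap was at 0.769 times the wild-type level (0.716 to 0.826) in Larp7f/f;nestin-Cre and at 0.994 times in Larp7f/f;Emx1-Cre. S100b was at 0.724 times the wild-type level in Larp7f/f;nestin-Cre (0.605 to 0.864) and at 1.01 times in Larp7f/f;Emx1-Cre (0.867 to 1.17). For Aldh1l1 and Slc1a3 the fold was 0.95 to 1.12 in both mutants. Egfr was 1.19-fold (0.965 to 1.48) and 1.16-fold (0.949 to 1.42) higher in astrocytes, with intervals that included no difference, and 1.43-fold (1.13 to 1.80) and 1.35-fold (1.06 to 1.71) higher in cluster 11.

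In OPCs, 1 of 6 members was called in Larp7f/f;nestin-Cre (11.2% of all genes) and 0 of 6 in Larp7f/f;Emx1-Cre (5.28%). The called gene, S100b, was at 187 CPM in wild-type OPCs, 110 in Larp7f/f;nestin-Cre (0.590 times, 0.453 to 0.766) and 135 in Larp7f/f;Emx1-Cre (0.721 times, 0.563 to 0.924). Pdgfra was 1.35-fold (1.21 to 1.51) and 1.24-fold (1.11 to 1.39) higher, while Olig1 was at 0.720 and 0.839 times and Olig2 at 0.680 and 0.840 times the wild-type level. The receptor and the 2 factors thus lay on opposite sides of the wild-type level in both mutants, none of them past 1.5-fold. The 3 blood markers summed to 3368 CPM in wild-type OPCs against 20.5 and 179 CPM in the mutants. Their part in the OPC differences was not tested.

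**Figure D3:**
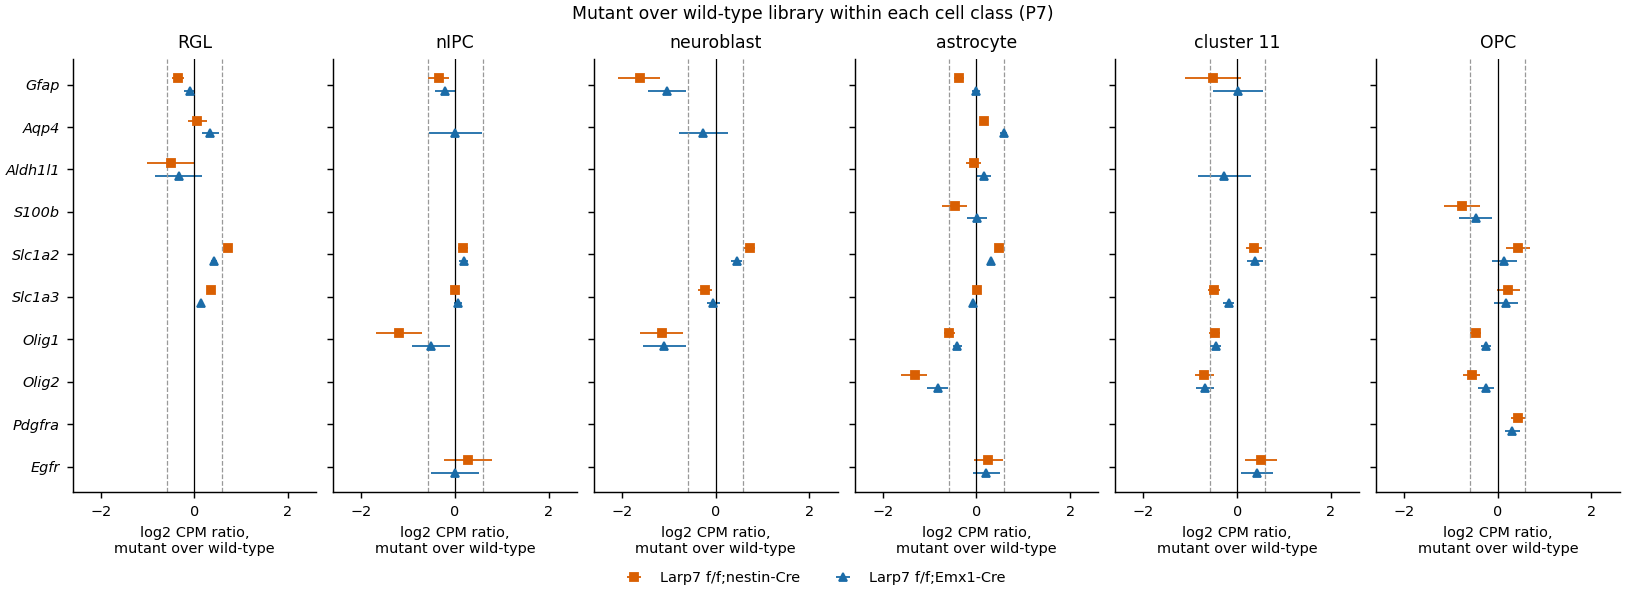
Log2 ratio of CPM, mutant over wild-type library, for each gene with at least 100 UMIs, in RGLs, nIPCs, neuroblasts, astrocytes, cluster 11 and OPCs. Bars are 95% counting intervals, and dashed lines mark 1.5-fold in either direction. Slc1a2 lies to the right of 0 and Olig1 and Olig2 to the left of 0 in astrocytes, cluster 11 and OPCs of both mutants.

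Lists of related genes, chosen with earlier results of these data known, were set beside the members. Of 26 regulators of gliogenesis, all with enough UMIs in RGLs, 4 were higher in Larp7f/f;nestin-Cre (Id3, Jak2, Sox9 and Stat3) and 4 in Larp7f/f;Emx1-Cre (Hes1, Jak2, Sox9 and Stat3), and 0 were lower, where 10.4% and 5.56% of all genes were called in either direction. Jak2 and Stat3 carry the cytokine signal that induces astrocyte genes, and Sox9 is a glial fate factor. The higher Stat3 was not particular to RGLs. It was also called higher in nIPCs and OPCs of both mutants and in cluster 11 of Larp7f/f;nestin-Cre. The median log2 difference of the list was 0.35 and 0.27, against 0.04 and 0.04 over all genes. Of 27 further astrocyte genes, 25 had enough UMIs in RGLs, where 1 (Lcat) was lower in Larp7f/f;nestin-Cre and 0 were called in Larp7f/f;Emx1-Cre. In astrocytes, the metallothionein genes Mt1 and Mt2 were higher in Larp7f/f;nestin-Cre and Mt2 in Larp7f/f;Emx1-Cre, 2 and 1 of 27 measured, near the 7.49% and 4.72% of all genes called there. Of the 26 regulators in astrocytes, 1 was higher (Smad1) and 1 lower (Hes5) in Larp7f/f;nestin-Cre. In Larp7f/f;Emx1-Cre 0 were higher and 1 was lower (Hes5). These counts too are near the shares of all genes called in astrocytes. Hes5, a Notch target that maintains progenitors, was also lower in nIPCs and neuroblasts of both mutants. It was lower too in microglia of both mutants, the class used above to gauge background. The part of free RNA in the Hes5 differences was not tested.

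Of 25 genes of EGFR and PDGFRA signalling, 9 and 7 had enough UMIs in RGLs and 10 in astrocytes. Etv4, a transcription factor induced by receptor tyrosine kinases, was lower in RGLs and astrocytes of both mutants, and in astrocytes Spry1 and Spry2, feedback inhibitors of these receptors, were lower in Larp7f/f;nestin-Cre. In RGLs Etv5 was also lower in Larp7f/f;Emx1-Cre, while Errfi1, another feedback inhibitor of EGFR, was higher in Larp7f/f;nestin-Cre. These were 2 of 9 and 2 of 7 genes in RGLs, where 10.4% and 5.56% of all genes were called, and 3 and 1 of 10 in astrocytes, where 7.49% and 4.72% were. Of 23 further oligodendrocyte genes, 13 had enough UMIs in OPCs. Mbp, which encodes a myelin protein, was lower in both mutants, Cnp was lower in Larp7f/f;Emx1-Cre, and Sox6 was higher in Larp7f/f;nestin-Cre. Of all genes in OPCs, 11.2% and 5.28% were called in Larp7f/f;nestin-Cre and Larp7f/f;Emx1-Cre. The summed level of 9 oligodendrocyte markers in the OPC class was 1059 CPM in wild-type against 871 and 689 in the mutants, and its part in these differences was not tested. In cluster 11, Sox6 and Sox8 were higher in both mutants and Sox5 in Larp7f/f;nestin-Cre, of 5 and 4 genes with enough UMIs, where 12.8% and 7.1% of all genes were called.

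The neurosphere libraries held 59821311 to 62474602 counts, and 17753 genes were tested. Larp7 was at 42.8 and 35.0 CPM in the 2 wild-type libraries and at 4.17, 6.35 and 4.39 CPM in the 3 knockout libraries, a log2 difference of -2.97 (SE 0.205, edgeR adjusted p = 0.0198). In bulk RNA, fewer cells of a type and less RNA per cell cannot be told apart. Nothing states that the cultures came from separate litters, so that p-values measure only the spread between these libraries. Gfap and Aqp4 were below 5 CPM in every library.

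None of the 10 members passed the test in neurospheres. With edgeR's quasi-likelihood test, 0 of 10 members passed at an adjusted p of 0.05, where 0.0169% of all genes rose and 0.0169% fell, 3 genes in each direction. At an unadjusted p of 0.05, 5 of 10 members and 21.7% of all genes passed. With DESeq2, 1 member rose and 2 fell, where 4.9% of the genes it tested rose and 5.81% fell. In 2 members every knockout library lay above both wild-type libraries and in 4 every knockout library lay below them, against 21.3% and 21.3% of all genes.

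Pdgfra was at 820 and 765 CPM in the wild-type libraries and at 1115, 1267 and 1134 CPM in the knockout libraries. All 3 knockout libraries lay above both wild-type libraries. The log2 difference was 0.56 (SE 0.092, edgeR adjusted p = 0.0933), and DESeq2 gave an adjusted p of 5.3e-07. Without wild-type replicate 1, the edgeR adjusted p was 0.0239. The summed level of the 9 OPC markers overlapped between the groups, at 1566 and 1723 CPM against 1419 to 1888.

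Slc1a2 was at 219 and 345 CPM in the wild-type libraries and at 165, 156 and 178 CPM in the knockout libraries, which all lay below. The log2 difference was -0.76 (SE 0.177, edgeR adjusted p = 0.113), with a DESeq2 adjusted p of 0.00099. Without wild-type replicate 1, the lower of the wild-type pair, it was -1.05 (edgeR adjusted p = 0.00317), and without wild-type replicate 2 it was -0.39 (edgeR adjusted p = 0.221), so that 1 wild-type library decides its size. Slc1a3 was at 2012 and 2449 CPM in wild-type and at 1749, 1113 and 1424 CPM in knockout libraries, again without overlap. Its log2 difference was -0.64 (SE 0.193, edgeR adjusted p = 0.149), and DESeq2 gave 0.0076. The 15 astrocyte markers summed to 3963 and 4586 CPM in wild-type and to 2305 to 3113 CPM in knockout libraries, all lower, and their part in the transporters' difference was not tested. In P7 RGLs and astrocytes of both mutants Slc1a2 lay above the wild-type library.

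The remaining members differed less. Egfr was at 401 and 424 CPM in wild-type and at 385, 287 and 303 CPM in knockout libraries, without overlap (log2 difference -0.34, SE 0.129, edgeR adjusted p = 0.201). Olig1 was at 3527 and 4068 CPM against 3348, 3497 and 3385, and Olig2 at 1350 and 1432 CPM against 1535, 1610 and 1470. The neighbouring Olig genes lay on opposite sides without overlap, by log2 differences of -0.16 (SE 0.105) and 0.15 (SE 0.0858), edgeR adjusted p = 0.426 and 0.367. S100b was at 14.8 and 25 CPM against 12.2, 9.61 and 15.3, Aldh1l1 at 77.2 and 99.4 CPM against 37.7, 48.0 and 98.3, and Gfap at 2.23 and 1.46 CPM against 0.773, 1.62 and 2.32. Aqp4 was at 4.52 and 2.19 CPM against 4.23, 2.15 and 4.34. In these 4 genes the groups overlapped.

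**Figure D4:**
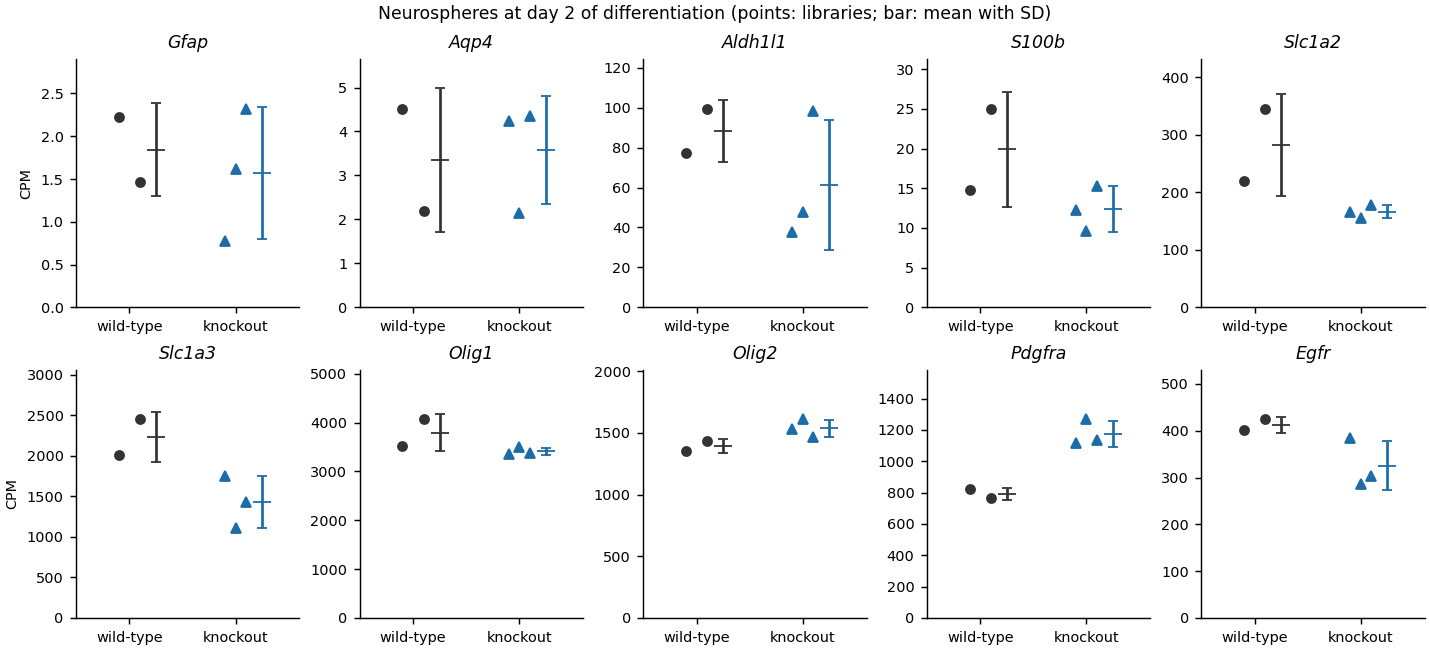
Level of each gene in CPM (linear axes from 0, a scale per gene) in 2 wild-type and 3 knockout neurosphere libraries at day 2 of differentiation. Points are libraries, and bars give the mean with SD. Pdgfra is higher in every knockout library (1115 to 1267 against 765 and 820), and Slc1a2 and Slc1a3 are lower.

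Of the lists in neurospheres, edgeR passed 0 genes of each. Over all genes, 21.7% had an unadjusted edgeR p under 0.05, and DESeq2 called 4.9% risen and 5.81% fallen. In the astrocyte list 4 of 27 genes lay above 0 and 23 below, with a median log2 difference of -0.40. At an unadjusted p of 0.05 edgeR passed 1 above 0 and 16 below, and DESeq2 called 11 fallen and 0 risen. In the oligodendrocyte list 21 of 23 lay above 0, with a median of 0.67. At an unadjusted p of 0.05 edgeR passed 9 above 0 and 0 below, and DESeq2 called 7 risen and 0 fallen. The regulators of gliogenesis had a median of -0.10 over 26 genes, with 3 above 0 and 1 below at an unadjusted p of 0.05 and 3 risen with DESeq2. EGFR and PDGFRA signalling had a median of 0.06 over the 22 tested of 25, with 4 above 0 and 5 below at an unadjusted p of 0.05 and 4 risen and 2 fallen with DESeq2. The median over all genes was 0.01. The 9 oligodendrocyte markers summed to 710 CPM in wild-type replicate 1 and 245 CPM in replicate 2, against 738 to 1180 CPM in knockout libraries, so that the wild-type pair differed more than wild-type replicate 1 and the lowest knockout library did.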

How the data were processed

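UMI counts per gene and barcode were deposited by the authors, per the labels from 10x Genomics 3′ libraries with Cell Ranger on mm10, and neurosphere counts were deposited by the authors as whole numbers per gene. The paper's methods name alignment to the Ensembl transcriptome with Minimap2 and the labels name featureCounts; how strand was treated is not stated there. Of the columns of the count table, 5 were used, and 5 whose names fit no labelled sample were left aside. Of 40814 Entrez identifiers, 39373 got a symbol. ATAC-seq and CUT&Tag samples were not analysed here.

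Cells were kept above 500 genes and below 15% mitochondrial UMIs. Cells were log-normalized, 2000 variable genes were scaled per library, and clusters were found by Leiden (resolution 1) on 15 nearest neighbours in 30 principal components with scanpy 1.11.5 and leidenalg 0.10.2 in Python 3.11.15. Cell cycle genes, the members and the pathway lists were left out of the clustering. Clusters were named from marker lists, when at least 3 markers were detected in at least 10% of cells and raised 1.5-fold. The mean log2 fold of the list also had to reach 0.5. Among the 10 leading genes of a cluster, no other list could have more entries. There, astrocyte and oligodendrocyte pathway genes counted only against a name. Very shallow clusters without a leading marker stayed unnamed. Doublets were kept: Scrublet called 2 wild-type cells, where it did not work, 272 in Larp7f/f;nestin-Cre and 407 in Larp7f/f;Emx1-Cre. UMIs were summed per class, with exact Poisson intervals for levels and exact Clopper-Pearson intervals for shares, at 95%. With 1 library per genotype there is no test.

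Neurosphere counts were tested with edgeR 4.0.16 (R 4.3.3; TMM, filterByExpr, quasi-likelihood test, Benjamini-Hochberg), with DESeq2 1.42.0 as an alternative. On simulated data for this comparison with 200 genes changed 2-fold, among 17753 genes, 54.5% were recovered. Replicates differed beyond counting noise (chi-square per degree of freedom 20.1 to 66.1). The members and lists were chosen with earlier results of these data known. The genes named were the 10 members, Larp7, the 3 genes most like each member, and in neurospheres the 3 largest changes per list past the threshold, of which there were none; genes named from the lists in single cells were chosen after their values were seen, from those called in the classes where the lists are described, and some results are not reported here.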

Additional observations from a re-analysis of the deposited data

How the results depend on the processing

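In neurospheres the main test called 6 genes. This was 3 genes without the filter on low counts, 0 with the replicate block and 1586 with DESeq2 (726 rose and 860 fell), and it ran from 0 to 1905 when each library was left out, the highest without wild-type replicate 1. Members called were 0 in the main test, 3 with DESeq2 and 0 to 2 when each library was left out, with Slc1a2 and Pdgfra past the threshold only without wild-type replicate 1. With the replicate block no member passed (0), and the replicate numbers did not pair the samples: deviations of same-numbered libraries correlated by -0.00533 and 0.0934. With 1 wild-type library left, that library is assumed to vary like the knockout libraries. In 8 of the 10 members the direction was the same in every alternative run, and Gfap and Aqp4, at under 5 CPM, were the exceptions.

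In the P7 libraries, the 10 called differences became 2 with mean log-normalized values (a scale that compresses differences), 17 at resolution 2, 16 without scaling within libraries and 29 when each cell was assigned by its own markers alone. Over 7 alternatives the 10 differences gave 70 values, of which 69 kept the direction and 52 stayed past 1.5-fold. The exception was Slc1a2 in Larp7f/f;nestin-Cre neuroblasts, at a log2 difference of -0.23 when cells were assigned by their own markers. Slc1a2 in Larp7f/f;nestin-Cre RGLs stayed called in all 7. The cause of these shifts was not tested. Depth limits Olig2, Pdgfra and Egfr in RGLs and neuroblasts, where under 100 UMIs were counted. No single-cell library can be left out, because each genotype has 1.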

Other observations

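Cluster 0, an unnamed cluster of shallow cells, held 3645 cells of the wild-type library, 33.1% of it, against 89 and 82 cells of the mutant libraries. In its wild-type cells Slc1a3 was at 1029 CPM, Slc1a2 at 952, Olig1 at 249, Aqp4 at 226, Gfap at 189 and Olig2 at 78.2 CPM. In the 979 wild-type cells of the blood class, which should lack these genes, Slc1a3 was at 1003 CPM, Slc1a2 at 928, Olig1 at 227, Aqp4 at 192, Gfap at 173 and Olig2 at 74.5 CPM. Cluster 7, led by Gdf10, Lix1 and Prdm16, held Slc1a3 at 1342, 1385 and 1313 CPM in the wild-type, Larp7f/f;nestin-Cre and Larp7f/f;Emx1-Cre libraries. Olig1 was at 285, 73.6 and 136 CPM there and Olig2 at 76.6, 14.0 and 31.2 CPM.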
